A study of Mus musculus with 6 samples.

Results

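The 10 genes described here encode the machinery with which macrophages show peptides to CD4+ T cells, and they were taken by symbol from the 57180 gene identifiers of the deposited table. They comprise 4 class II chain genes (Cd74, H2-Aa, H2-Ab1 and H2-Eb1), 2 peptide loading genes (H2-DMa and H2-DMb1), the class II transactivator gene Ciita and 3 co-stimulator genes (Cd86, Cd80 and Cd40). Each of the 10 was found and each passed the filter of at least 1 TPM in at least 3 libraries, as did 11753 genes in all. RNA was sequenced from bone marrow-derived macrophages of wild-type (WT) mice, primary cells able to become osteoclasts, which resorb bone, after 5 days in osteoclast-inducing culture. The control group of 3 libraries had no Visomitin and the other group of 3 had Visomitin, an antioxidant directed to mitochondria that is also called SkQ1. The sources used here do not give mouse strain, age or sex, or the drug dose. Nor is it stated whether the libraries of a group came from separate mice or cultures, so p-values cover the spread between libraries alone, and that spread may be technical. Per library, 11551 to 11821 genes reached 1 TPM.

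Class II molecules are pairs of an alpha and a beta chain that load peptides in endosomes and carry them to the cell surface. Cd74 encodes the invariant chain, which fills the groove of a new class II molecule and escorts it to endosomes; the DM heterodimer then exchanges the last invariant chain fragment for peptide. CIITA is the coactivator on which class II, invariant chain and DM genes depend, while CD80 and CD86 engage CD28 on T cells and CD40 receives CD40 ligand from them. Osteoclasts and macrophages arise from the same precursors, and class II presentation is a macrophage and dendritic cell function.

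With Visomitin, the class II genes moved in opposite directions. The chain genes Cd74 and H2-Aa fell, by 2.10-fold and 1.73-fold, whereas the loading genes H2-DMa and H2-DMb1 rose, by 1.71-fold and 1.35-fold. Among the co-stimulators Cd86 rose 2.38-fold, and Cd80 and Cd40 did not pass the test. H2-Ab1, H2-Eb1 and Ciita did not pass either. Folds were computed from log2(TPM + 1), so the change of a gene at low level is understated; TPM is a share of each library's transcripts corrected for gene length. Of the 10 genes 3 rose, 2 fell and 5 did not pass (limma with Benjamini-Hochberg adjustment over all tested genes, two-sided, threshold 0.05). Across all 11753 tested genes 7.1% passed, 2.08% higher and 5.03% lower; of the passing genes 70.8% were lower, or 58.9% with median-ratio scaling and 53.8% with quantile normalization. Group ranges did not overlap for 8 of the 10 genes, against 30.4% of tested genes. The median log2 fold change was -0.63 for the 4 chain genes and 0.60 for the 2 loading genes, beside -0.03 for all tested genes. In bulk RNA, fewer cells of a type and less RNA per cell cannot be told apart, and this holds for each gene below.

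**Figure D1:**
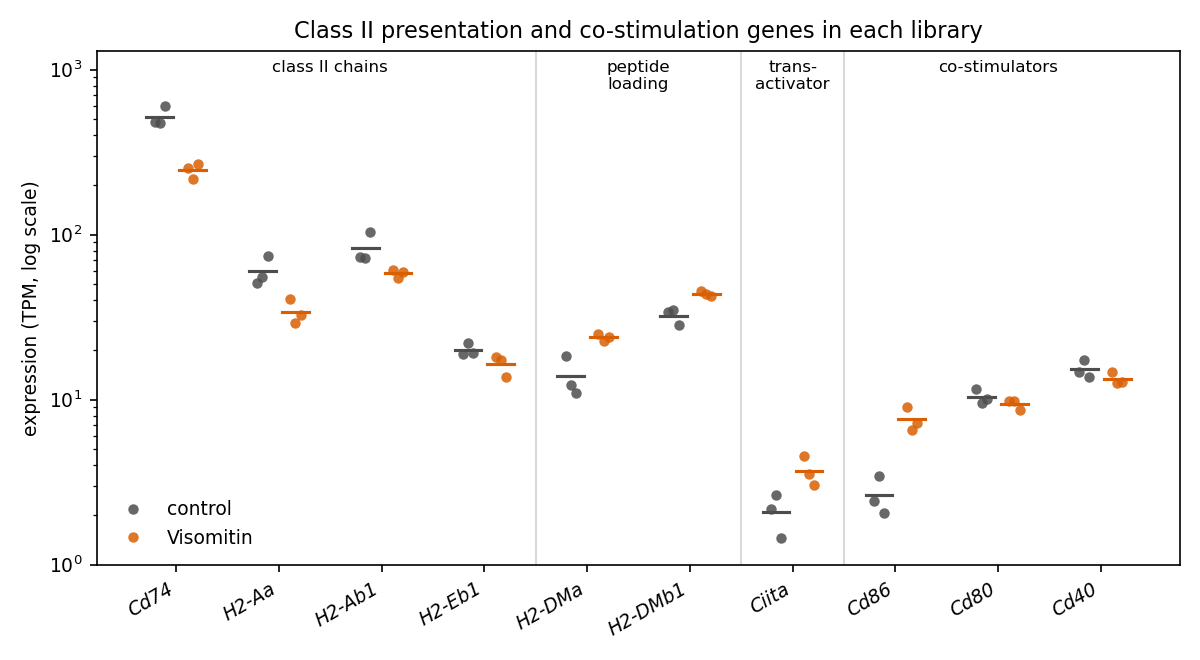
Expression of the 10 genes in TPM on a log axis, with 1 point per library, control in dark grey and Visomitin in orange, and a line at each group mean. The Visomitin libraries lie below the controls for Cd74 (216 to 266 against 472 to 599 TPM) and above them for Cd86 (6.57 to 9.06 against 2.05 to 3.47 TPM).

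Cd74 was the most abundant of the 10 genes in each library. It stood at 484, 472 and 599 TPM in controls 1 to 3 and at 254, 216 and 266 TPM in Visomitin 1 to 3. The lowest control was above the highest Visomitin library. The mean went from 518.5 ± 70.2 to 245.6 ± 26.3 TPM (SD, n = 3), a log2 fold change of -1.07 with SE 0.12 (limma adjusted p = 0.0017). Of all tested genes, 1.51% had a lower log2 fold change. The call held under each of 16 alternative settings, with adjusted p from 0.00026 to 0.020.

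H2-Aa, the alpha chain of the mouse class II molecule I-A, was at 50.7, 55.5 and 73.9 TPM in control and 40.8, 29.2 and 32.6 TPM with Visomitin. The groups did not overlap, with control 1 and Visomitin 1 the nearest to each other. The log2 fold change was -0.79 (SE 0.17, limma adjusted p = 0.028). The call was lost after median-ratio scaling or quantile normalization (adjusted p = 0.055 for both), with no filter (0.10) and without limma's trend (0.051). It was also lost without control 1, 2 or 3 or Visomitin 2 or 3 (adjusted p of 0.051 to 0.093, log2 fold change of -0.90 to -0.63).

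H2-Ab1, the beta partner of H2-Aa, was at 73.6, 71.8 and 103 TPM in control and 61.4, 54.4 and 59.7 TPM with Visomitin. Control 3 stood above the other controls, as it did for Cd74 and H2-Aa. The log2 fold change of -0.48 (SE 0.14) did not pass (limma adjusted p = 0.084). It was -0.31 without control 3, and it passed with the library number as a block (adjusted p = 0.044). H2-Eb1, the beta chain of the I-E molecule, was at 18.9, 22.0 and 19.1 TPM in control and 18.1, 17.3 and 13.7 TPM with Visomitin. Its groups did not overlap but lay close together, and the log2 fold change of -0.28 (95% interval -0.58 to 0.02) did not pass (limma adjusted p = 0.24). The gene of its alpha partner, H2-Ea-ps in the reference annotation, is listed at 0 in all 6 libraries.

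The loading genes were ordered the other way. H2-DMa encodes the alpha chain of DM and was at 18.3, 12.2 and 10.9 TPM in control and 25.0, 22.5 and 23.9 TPM with Visomitin. Control 1 was nearest to the Visomitin libraries, and the groups did not overlap. The log2 fold change was 0.77 (SE 0.17, limma adjusted p = 0.036), higher than that of 99% of tested genes. The call was lost without control 2 or 3 or without Visomitin 1, 2 or 3 (adjusted p of 0.068 to 0.10, log2 fold change of 0.64 to 0.81), with no filter (0.12) and without the trend (0.056). An opposite-strand gene, Brd2, covers 360 of the 3448 exonic bases of H2-DMa in GENCODE M21, and the sources used here do not say whether strand was used in counting. Brd2 was at 159, 159 and 167 TPM in control and 116, 150 and 142 TPM with Visomitin (log2 fold change -0.26, limma adjusted p = 0.18), and the part of Brd2 reads in the H2-DMa value was not tested.

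H2-DMb1, the beta chain of DM, was at 34.0, 34.8 and 28.2 TPM in control and 45.6, 43.6 and 42.2 TPM with Visomitin. Again the Visomitin libraries were all above the controls. The log2 fold change was 0.43 (SE 0.11, limma adjusted p = 0.047), close to the threshold, and the call was lost in each of the 6 fits on 5 libraries (adjusted p of 0.074 to 0.14, log2 fold change of 0.34 to 0.49), as it was with no filter (0.094) or without the trend (0.074). In GENCODE M21 transcripts, H2-DMb1 shares 31.4% of its 31-base words with its paralog H2-DMb2, so the split of reads between them is uncertain. H2-DMb2 was listed at 0.61 to 0.87 TPM in control and 0.49 to 1.51 TPM with Visomitin, and the sum of both genes gave a log2 fold change of 0.44 (limma adjusted p = 0.044).

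Ciita was the least abundant of the 10 genes in mean TPM of either group. It was at 2.17, 2.64 and 1.46 TPM in control and 4.54, 3.54 and 3.06 TPM with Visomitin. Each Visomitin library was above each control, while the log2 fold change of 0.62 (SE 0.20, 95% interval 0.16 to 1.07) did not pass (limma adjusted p = 0.10). It passed with array weights (adjusted p = 0.045) and was 0.30 with a pseudocount of 5. The opposite-strand gene Dexi covers 329 of its 9535 exonic bases and was at 8.60 to 11.02 TPM in control and 11.52 to 16.97 TPM with Visomitin (log2 fold change 0.50, limma adjusted p = 0.10). The part of Dexi reads in the Ciita value was not tested.

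**Figure D2:**
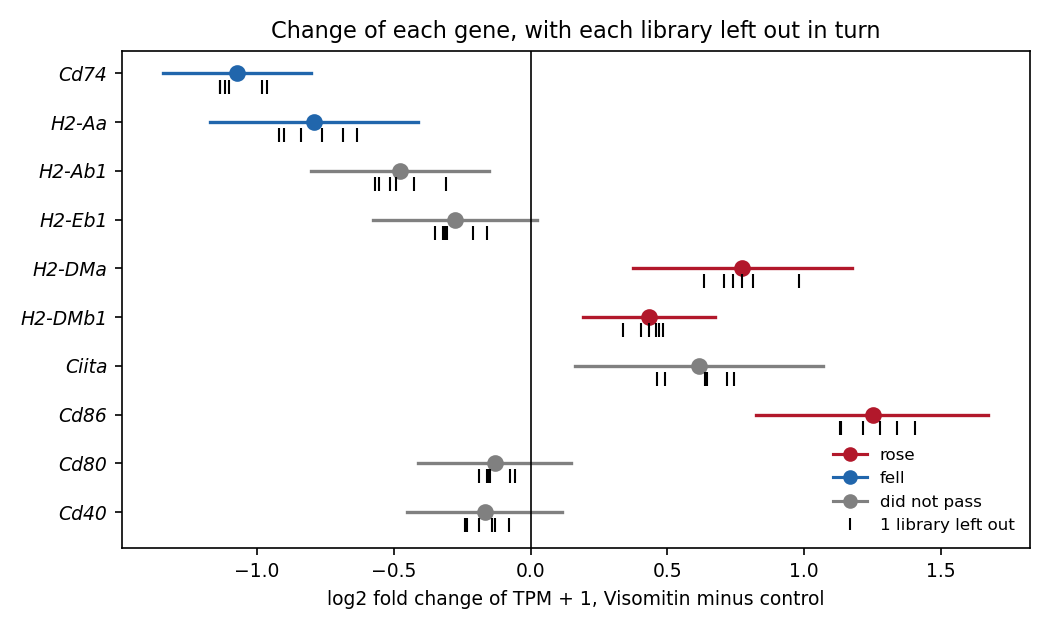
Log2 fold change of TPM + 1, Visomitin minus control, for the 10 genes, where lines are 95% intervals from limma and black ticks are the values with 1 library left out. For each gene the 6 ticks lie on the same side of 0 as the full fit, from -1.14 to -0.96 for Cd74 and from 1.13 to 1.41 for Cd86.

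CIITA acts through a conserved promoter module of class II genes, so the promoter letters of genes that moved in opposite directions can be set side by side. RefSeq promoters of build GRCm38.p6, from 250 bases before to 50 bases after a gene's start, were present for 5 of the 10 genes: H2-Aa, H2-Eb1, H2-DMb1, H2-DMa and Cd80. Each was searched on both strands for a core of the X box bound by the RFX complex (AGNNAC followed directly by NNATG, where N is any base) and for ATTGG, the core of the Y box bound by NF-Y. The same 80 bases, from 110 to 31 before the start, are shown for a loading gene and 2 chain genes because they hold these motifs; capitals mark an X core and the Y core that goes with it, or the Y core alone.
H2-DMb1, chr17:34153081-34153160, plus strand: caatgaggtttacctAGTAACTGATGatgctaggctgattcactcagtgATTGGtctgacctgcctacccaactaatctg
H2-Eb1, chr17:34305757-34305836, plus strand: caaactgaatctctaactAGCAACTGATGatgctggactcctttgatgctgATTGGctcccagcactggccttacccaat
H2-Aa, chr17:34287854-34287933, minus strand: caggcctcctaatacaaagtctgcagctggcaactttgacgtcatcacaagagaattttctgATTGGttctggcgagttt
In H2-DMb1 the X core began 95 bases before the start and the Y core followed 34 bases later; in H2-Eb1 the X core began 92 bases before the start and the spacing was 33 bases. An X core followed by a Y core on the same strand, 15 to 40 bases from start to start, occurred in 26 of 32851 promoters (0.0791%), which belong to 24 genes. H2-Ob and H2-Eb2, which are further class II genes but not partners, were among the 24. ATTGG occurred in 37.4% of promoters and the X core in 3.09%. H2-DMb1, which rose, and H2-Eb1, which did not pass and had a negative value, thus carry the same arrangement. The listed promoters of H2-DMa, which also rose, and that of Cd80 held no match to the X core letters. Which listed start of H2-DMa these cells use was not tested. A Y core stood alone in an H2-DMa promoter, 198 bases before its start. The H2-Aa promoter held a Y core 48 bases before the start and no match to these X core letters. Its stretch holds ggcaac, which differs from AGNNAC in the first letter. The letters that follow, tttga, do not match NNATG. Near matches were not counted for any gene. The search therefore cannot show that H2-Aa, H2-DMa or Cd80 lacks an X box. An interferon-type motif (GAAA, NN and GAAA in a row), found in 3.44% of promoters, had no match in the 6 promoters of the 5 genes. A match is a description of letters and not a measured binding site.

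Cd74 lies on another chromosome than the H2 genes. On chromosome 17, the region from H2-DMa to H2-Eb2 holds class II genes with class I presentation genes between them, in the order H2-DMa, H2-DMb2, H2-DMb1, Psmb9, Tap1, Psmb8, Tap2, H2-Ob, H2-Ab1, H2-Aa, H2-Eb1 and H2-Eb2. Of the 9 that could be tested, H2-DMa, H2-DMb1 and Psmb9 rose, H2-Aa fell and 5 did not pass, beside 7.1% of all tested genes that passed. H2-DMa, H2-DMb1 and H2-Aa belong to the 10 genes counted above, so only Psmb9 is a further call. Psmb9, which encodes an immunoproteasome subunit, averaged 39.9 ± 3.55 TPM in the controls and 58.9 ± 2.95 TPM in the Visomitin libraries (SD, n = 3). Its log2 fold change was 0.55 (SE 0.10, limma adjusted p = 0.014). That call was lost without control 1 (adjusted p = 0.068) or control 3 (0.056). Tap2, of the peptide transporter, had a value of -0.22 (limma adjusted p = 0.21), and its partner Tap1 a value of 0.36 (limma adjusted p = 0.14).

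**Figure D3:**
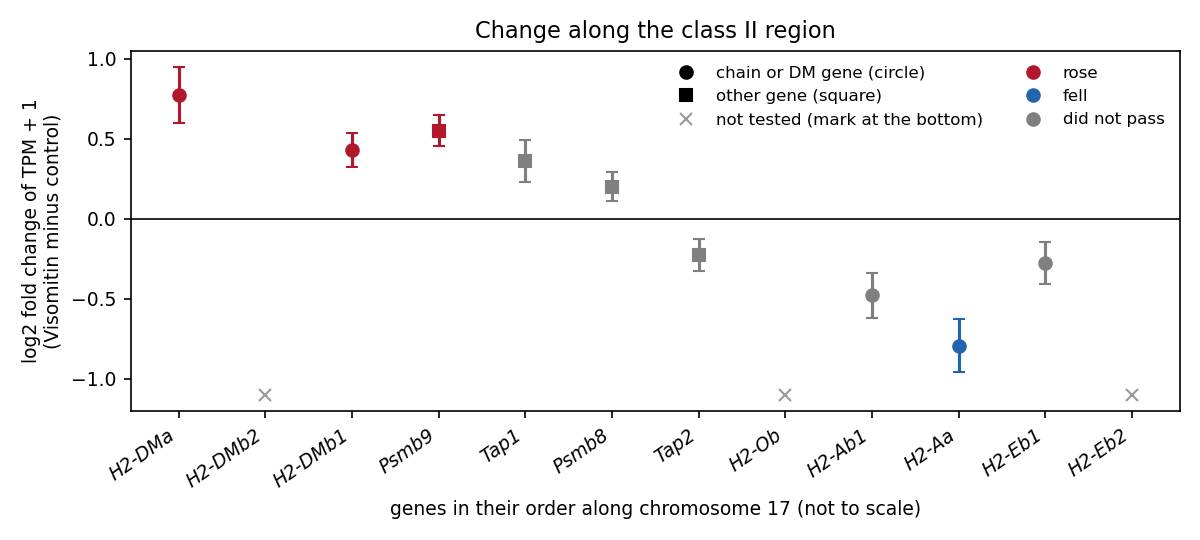
Log2 fold change of TPM + 1 (Visomitin minus control, bars are SE) for genes of the class II region in their order along the chromosome, with crosses at the bottom for genes too low to test. Values run from 0.77 at H2-DMa through 0.55 at Psmb9 to -0.79 at H2-Aa.

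The proportions of these transcripts within each library do not depend on scaling between libraries. They do depend on how reads were assigned to genes. The overlap of H2-DMa with Brd2 and the words that H2-DMb1 shares with H2-DMb2 were not corrected for. H2-DMa and H2-DMb1 together amounted to 36.5%, 31.5% and 19.9% of the summed H2-Aa, H2-Ab1 and H2-Eb1 TPM in controls 1 to 3. With Visomitin they amounted to 58.7%, 65.5% and 62.4%. The groups did not overlap, and control 3, where the chains were highest and DM lowest, was the lowest of all. Cd74 was 3.38, 3.16 and 3.05 times the summed H2 chains in control and 2.12, 2.14 and 2.52 times with Visomitin, so that the invariant chain was lower against its partners as well. H2-Ab1 was 1.45, 1.30 and 1.40 times H2-Aa in control and 1.51, 1.87 and 1.83 times with Visomitin.

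These shifts changed the order of the levels. In control the means ran from Cd74 through H2-Ab1 (82.9 TPM), H2-Aa (60.0), H2-DMb1 (32.3), H2-Eb1 (20.0), Cd40 (15.2), H2-DMa (13.8), Cd80 (10.4) and Cd86 (2.65) to Ciita (2.09). The control ranges of H2-Ab1 and H2-Aa overlapped, as did those of Cd40 and H2-DMa, of H2-DMa and Cd80, and of Cd86 and Ciita. With Visomitin, H2-DMb1 at 43.8 ± 1.72 TPM stood above H2-Aa at 34.2 ± 5.96 TPM, and H2-DMa at 23.8 ± 1.23 TPM above H2-Eb1 at 16.4 ± 2.37 TPM (SD, n = 3). For both pairs the ranges did not overlap in either group. H2-DMa also passed Cd40 (13.4 ± 1.14 TPM), and the other genes kept their control order. The limits of read assignment given above hold for the places of H2-DMa and H2-DMb1 in this order as well.

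**Figure D4:**
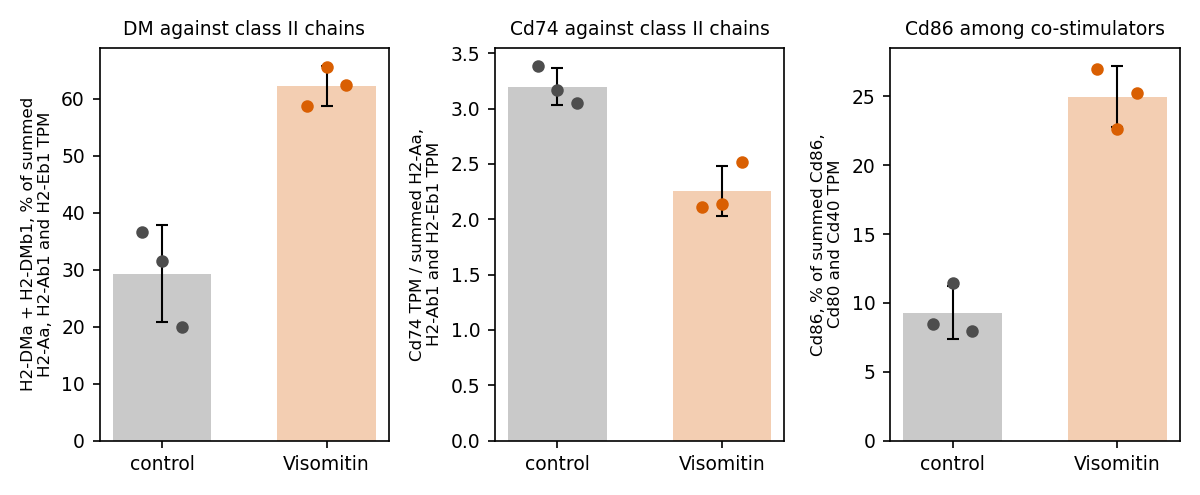
Proportions within each library, with bars at the group mean, SD as error bars and 1 point per library: DM transcripts as a percentage of the H2 chains, Cd74 as a multiple of the H2 chains, and Cd86 as a percentage of the 3 co-stimulators. The group means were 29.3% and 62.2%, 3.20 and 2.26 times, and 9.29% and 25.0%, for control and Visomitin in turn.

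Among the co-stimulators the change was in Cd86. It was at 2.43, 3.47 and 2.05 TPM in control and 9.06, 6.57 and 7.26 TPM with Visomitin. The lowest Visomitin library was above the highest control. The mean went from 2.65 ± 0.74 to 7.63 ± 1.29 TPM (SD, n = 3), with a log2 fold change of 1.25 (SE 0.19, limma adjusted p = 0.0070), and 99.7% of tested genes had a lower value. The ratio of the mean TPM was 2.88, larger than the 2.38-fold on the scale with a pseudocount. The call held under each of the 16 alternatives, with adjusted p from 0.0028 to 0.0499.

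Cd80, the other ligand of CD28 and CTLA-4, was at 11.6, 9.49 and 10.1 TPM in control and 9.76, 9.80 and 8.62 TPM with Visomitin. The groups overlapped, and the log2 fold change of -0.13 had a 95% interval of -0.41 to 0.15 (limma adjusted p = 0.56). Cd40, a receptor of the TNF receptor family, was at 14.8, 17.3 and 13.7 TPM in control and 14.7, 12.7 and 12.9 TPM with Visomitin. Here too the groups overlapped, with a log2 fold change of -0.17 and a 95% interval of -0.45 to 0.11 (limma adjusted p = 0.45). Cd80 was 4.77, 2.74 and 4.94 times Cd86 in control and 1.08, 1.49 and 1.19 times with Visomitin. The CD28 ligands were thus mostly Cd80 transcript in control. With Visomitin, Cd80 was still the higher in each library, by a smaller margin.

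When the group labels were permuted exactly (two-sided), 3 against 3 libraries could give no p below 0.1. This exact permutation p of 0.1 was reached by Cd74, H2-Aa, H2-Ab1, H2-Eb1, H2-DMa, H2-DMb1, Ciita and Cd86; Cd80 had p = 0.3 and Cd40 p = 0.2.

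For genes that serve class II presentation at other steps, the shares over all tested genes stand beside each count: 7.1% passed and 24.4% had an unadjusted p under 0.05. The lists are short, so a count of 0 is near the share that passed. Of 5 other class II loci 0 reached the filter, so they were not tested. Their summed level was 0.90 to 1.44 TPM in control and 2.27 to 3.12 TPM with Visomitin. H2-Oa was at 0.16, 0.43 and 0.33 TPM in control and 0.96, 1.19 and 1.46 TPM with Visomitin. For the others in that list the ranges overlapped. Of 6 tested antigen processing genes 0 passed limma and 2 had an unadjusted p under 0.05. These were Ctsl, the cathepsin L gene, at 4029 ± 215 and 3366 ± 94.6 TPM (SD, n = 3; log2 fold change -0.26, limma adjusted p = 0.079), and Lgmn, for an asparaginyl endopeptidase, at 415.4 ± 9.56 and 502 ± 49.2 TPM (0.27, limma adjusted p = 0.11). Ctss, for the cathepsin that trims the invariant chain, was at 1739 ± 57.5 and 1759 ± 39.0 TPM (limma adjusted p = 0.91). The median of the list was 0.00. Of the surface turnover genes, 0 of 3 passed limma and 0 had an unadjusted p under 0.05; the ubiquitin ligase genes March8 and March1 had log2 fold changes of 0.13 and 0.20. Of 7 genes for the promoter complex that CIITA joins, 0 passed limma and 0 had an unadjusted p under 0.05. Rfxank (0.22) and Rfx5 (0.21), for RFX subunits, had the lowest p-values there (limma adjusted p = 0.33 and 0.52).

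Of 8 tested genes that feed into Ciita expression 2 rose, 0 fell and 6 did not pass, beside 7.1% of all tested genes that passed. Their median was 0.08 on the log2 scale. Irf8, for a transcription factor of the monocyte and dendritic cell lineages, was at 61.97, 60.76 and 49.97 TPM in control and 86.71, 94.81 and 84.98 TPM with Visomitin. Its log2 fold change was 0.62 (SE 0.11, limma adjusted p = 0.012), and it missed the threshold without Visomitin 2 (adjusted p = 0.054). Ifngr1, for the ligand-binding chain of the interferon-gamma receptor, was at 174, 176 and 149 TPM in control and 216, 224 and 230 TPM with Visomitin. Its log2 fold change was 0.43 (SE 0.09, limma adjusted p = 0.027), and the call was lost without control 1, 2 or 3 or Visomitin 2 or 3 (adjusted p of 0.055 to 0.093), with no filter (0.066) and without the trend (0.065). Both genes thus lay higher in the 3 Visomitin libraries than in any control.

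Of 8 tested genes for other ligands of T cells, 0 passed limma and 4 had an unadjusted p under 0.05, against 7.1% and 24.4% of all tested genes. Cd274, which encodes the inhibitory ligand PD-L1, was at 27.0, 28.5 and 20.2 TPM in control and 33.8, 35.4 and 34.5 TPM with Visomitin (log2 fold change 0.46, limma adjusted p = 0.080). Vsir, for the inhibitory receptor VISTA, had a value of 0.27 (limma adjusted p = 0.10). Of the other two, Cd48 had a positive value (0.22, limma adjusted p = 0.19) and Cd276, for the ligand B7-H3, a negative one (-0.44, limma adjusted p = 0.12). Cd276 was at 25.9 to 30.1 TPM in control and 16.2 to 23.6 TPM with Visomitin, without overlap.

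Class I presentation, which shows cytosolic peptides to CD8+ T cells, gave 2 genes that rose, 1 that fell and 10 that did not pass of 13, with a median of 0.06; 7.1% of all tested genes passed. Besides Psmb9, the class I heavy chain gene H2-K1 rose from 1429 ± 75.3 to 1906 ± 119 TPM (SD, n = 3), or by 0.41 on the log2 scale (SE 0.08, limma adjusted p = 0.021). It lost its call without control 1 or 3 or Visomitin 2 or 3 (adjusted p of 0.058 to 0.096), with no filter (0.091) and without the trend (0.061). Calr, for the chaperone calreticulin, fell from 1168 ± 52.1 to 770 ± 84.6 TPM (-0.61, SE 0.10, limma adjusted p = 0.0092), a call lost with no filter (0.052). Nlrc5, the class I counterpart of Ciita, had a value of -0.33 (limma adjusted p = 0.17), opposite in sign to that of Ciita.

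**Figure D5:**
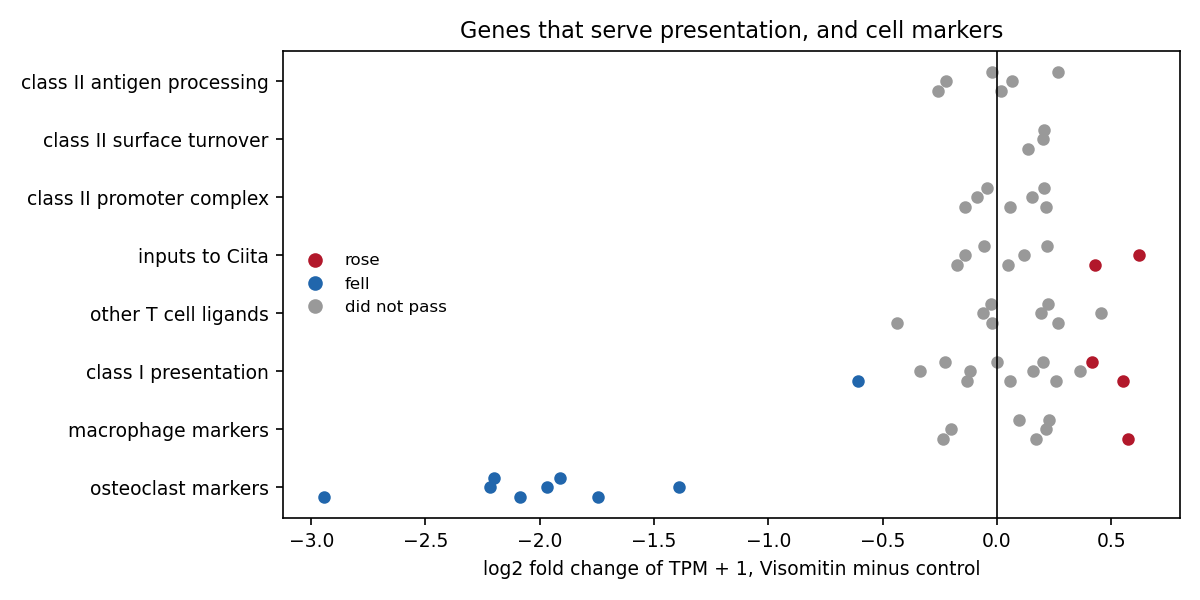
Log2 fold change of TPM + 1, Visomitin minus control, with 1 point per tested gene in lists of presentation genes and cell markers; vertical offsets within a list only separate the points. The 8 osteoclast marker genes lie between -2.94 and -1.39, and genes of the presentation lists between -0.61 and 0.62.

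Marker genes show which cells the libraries could hold. Over all tested genes, 7.1% passed limma, 2.08% higher and 5.03% lower, and 24.4% had an unadjusted p under 0.05. Of 7 macrophage marker genes all were expressed and 1 rose, Mertk, a receptor for the uptake of dying cells (0.57, limma adjusted p = 0.022). Its call was lost with no filter and without control 1, 2 or 3 or Visomitin 2. Cd68 had a value of -0.20 (limma adjusted p = 0.16), and the median of the list was 0.17. The summed macrophage level was 36040 to 40340 TPM in control and 41640 to 46780 TPM with Visomitin, without overlap. Most of that sum was Lyz2, which did not pass (0.21, limma adjusted p = 0.18). All 8 osteoclast markers fell, and their summed level went from between 11020 and 11970 TPM in control to between 2914 and 3499 TPM with Visomitin. The part of this shift in the values of the 10 genes was not tested. B cells and dendritic cells also make class II. Of 6 B cell markers 4 were listed at 0 in all libraries, Cd79a and Pax5 among them. The summed B cell level was 0.30 to 0.51 TPM in control and 0.80 to 1.65 TPM with Visomitin, without overlap, and nearly all of it was Cd79b. Of 8 dendritic cell markers, Flt3, Xcr1 and Clec9a did not exceed 0.09 TPM in any library, while Zbtb46 was at 1.26 to 1.91 TPM (limma adjusted p = 0.94). Itgax, which macrophages and osteoclasts also express, fell (-1.52, limma adjusted p = 0.00094) and set the summed level of that list, 24.5 to 30.3 TPM in control and 8.16 to 11.9 TPM with Visomitin. The summed T cell level reached 0.22 TPM in control and was 1.03 to 1.52 TPM with Visomitin, with Lck at no more than 0.14 TPM in control and at 0.55 to 1.31 TPM with Visomitin, and Cd3e was listed at 0 throughout. The part of these cell types in the values of the 10 genes was not tested. Of 5 neutrophil markers 3 were at 0 in all libraries. Their sum was 11.6 to 19.5 TPM in control and 8.82 to 15.3 TPM with Visomitin. Nearly all of it was S100a8, which did not pass (limma adjusted p = 0.32). Stromal transcripts summed to 108 to 316 TPM in control, highest in control 3, and to 72.7 to 161 TPM with Visomitin. Of the 4 tested stromal genes 0 passed limma (1 at an unadjusted p under 0.05). Control 3 also had the highest Cd74, H2-Aa and H2-Ab1 and the lowest H2-DMa, H2-DMb1, Ciita and Cd86 of the 6 libraries, and the part of stromal cells in this was not tested.

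Across the 6 libraries, Pearson correlations with the mean log2 level of the 4 chain genes were -0.91 for H2-DMa, -0.94 for H2-DMb1, -0.83 for Ciita and -0.90 for Cd86. For Cd80 and Cd40 they were 0.48 and 0.53. The libraries form 2 groups, so these values mostly restate the difference between groups. Over the same 6 libraries, the genes most like the chains were Chchd2 (0.998), Ssna1, Stk16, Pdrg1 and Cbr3 (0.985). Those most opposite were Kcnk6 (-0.999), Smim14, Mknk1, Rsph9 and Mertk (-0.995). Chchd2 encodes a mitochondrial protein and averaged 551.5 ± 14.1 TPM in the controls and 509.8 ± 7.90 TPM in the Visomitin libraries (SD, n = 3), with a difference of -0.11 (log2, limma adjusted p = 0.35); so a close likeness in pattern did not mean a change of like size.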

How the data were processed

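RNA sequencing of 6 libraries, 3 per group, was analysed from 1 deposited table. Per the labels' protocols, total RNA was isolated with TRIzol, genomic DNA was digested, and a stranded mRNA kit was used. Per the submitters' processing notes, fastp, HISAT2 and StringTie were used; the sources used here do not give versions, genome build, annotation or strand setting. The authors deposited TPM per gene, normalized within each library. TPM keep no counts: depth is unknown, and precision rests on 3 libraries a group. The table has 57180 Ensembl identifiers, and a reference table gave symbols for 51884. March1, March8 and H2-Ea-ps are the reference names of 3 listed genes.

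Genes at 1 TPM or more in 3 or more libraries were fitted as log2(TPM + 1) with limma 3.58.1 (R 4.3.3, eBayes with a trend), with group as the only term. P-values were adjusted over all tested genes. The fit was tested on simulated data. The 10 genes, the 7 presentation lists and the 7 marker lists were chosen with earlier results of these data known. The named genes are the 10, the passing members of each list (at least the 2 with the lowest p), and the genes most and least like the chains with a mean of at least 5 TPM; others (Brd2, Dexi, Ctss, Nlrc5, Tap1, Tap2, Cd68, Cd48, Cd276 and the genes listed near 0) were chosen after their values were seen, as were the order of levels and the within-library proportions. H2-Oa and Lyz2 were also chosen after their values were seen. Labels state no pairing. Alternatives numbered 16, of which the sum of H2-DMb1 and H2-DMb2 was added after seeing the data. Promoters come from RefSeq (GRCm38.p6) and shared words and overlaps from GENCODE M21 (GRCm38).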

Additional observations from a re-analysis of the deposited data

How the results depend on the processing

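Cd74 and Cd86 kept their call and direction under all 16 alternatives, and none of the 10 genes changed sign under any alternative that tested it; Ciita could not be tested with the filter of 5 TPM. Of the 10 genes, 3 rose and 2 fell in the main analysis. When low genes were not filtered out, and when limma's trend was dropped, 1 rose and 1 fell; 1 fell after either median-ratio scaling or quantile normalization. With 1 library left out, 1 to 2 rose and 1 to 2 fell. Such fits use 5 libraries. The median of the chain genes ranged from -0.73 to -0.47, the latter without control 3, and Ciita was at 0.30 with a pseudocount of 5. In the presentation lists 4 genes rose and 1 fell; 2 rose and 0 fell with no filter, 2 rose without the trend, 7 rose after quantile normalization, 11 rose and 3 fell with array weights, and 1 to 7 rose with 1 library left out. H2-Ab1 and Ciita passed with array weights.

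Over all tested genes, 244 were higher and 591 lower, or 70.8% lower. The counts were 73 and 308 with no filter, 1263 and 1572 with array weights (55.4% lower), 481 and 689 after median-ratio scaling (58.9%) and 559 and 651 after quantile normalization (53.8%). With 1 library left out, 54 to 411 were higher and 232 to 577 lower. For these changes the cause was not tested. With the library number as a replicate block, 308 were higher and 799 lower, and of the 10 genes 3 rose and 3 fell, H2-Ab1 being the addition. Residual correlations within a number were 0.05, 0.02 and 0.17, so the numbers are not shown to pair the libraries. TPM give no depth, so what depth limits, above all for Ciita and Cd86, cannot be stated.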
